A study of Homo sapiens with 4 samples.

Results

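The 10 genes described here encode intermediate filament proteins: the type II keratins KRT8, KRT7, KRT81, KRT80 and KRT4, the type I keratins KRT18 and KRT19, and vimentin (VIM), nestin (NES) and the A-type lamins (LMNA) of types III, IV and V. They were taken by symbol from the 57820 genes listed in the count files, and all 10 were found and passed the filter on low counts. The study measured RNA in A549 cells, an established human lung adenocarcinoma line. The TD group (2 libraries) is a mesenchymal-like form of A549 that received TGF-β (transforming growth factor beta) in doses of 2 ng/ml, with 3 days from one dose to the next, and the A549 group (2 libraries) is the parental line with epithelial morphology. Both grew in the same medium with 10% fetal serum. The labels give no clone, passage number or length of treatment. A lasting state of the TD cells and the TGF-β in their medium cannot be told apart in this design.

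Intermediate filaments are ropes of coiled-coil proteins that give cells mechanical strength. Keratin filaments are built from obligate pairs of 1 type I and 1 type II protein, with KRT8 and KRT18 the main pair of simple epithelia, while vimentin forms filaments from its own subunits and is typical of fibroblasts and other mesenchymal cells. A shift from keratin to vimentin filaments is a textbook feature of epithelial-mesenchymal transition, the change in cell state that TGF-β can induce in A549 cells. A-type and B-type lamins form the meshwork under the inner nuclear membrane.

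The libraries held 28237849 and 44133836 gene counts for TD and 26729278 and 29381872 for A549. The epithelial surface genes EPCAM and CDH1 had 0.103 to 0.197 and 2.86 to 3.05 CPM (counts scaled to library size and composition) in TD, against 148 to 153 and 189 to 191 CPM in A549. All 4 tested epithelial markers fell, as did 21.4% of all tested genes. EPCAM, ESRP1 and ST14 passed the filter on low counts through the A549 libraries alone, so they could not have risen. The sum of the epithelial markers was 3.17 and 3.54 CPM in TD and 341 and 349 CPM in A549, and CLDN4 was at 0 in all libraries. What part the fall of these markers has in the keratin values was not tested. The lung markers NKX2-1, SFTPA1, SFTPB and SFTPC had at most 6 counts in any library of either group, so a lung identity cannot be read from them. Markers of fibroblasts (5 genes) summed to 0.482 to 0.639 CPM in TD and 1.62 CPM in both A549 libraries. DCN was at 0 in TD and COL1A2 at 0 in A549. LUM, the 1 that could be tested, fell, but it too passed the filter through the A549 libraries alone. The 3 endothelial markers in the files summed to 0.221 to 0.517 CPM in TD and 0 to 0.144 CPM in A549, and 5 leukocyte markers to 1.84 to 2.07 CPM in TD and 1.65 to 1.83 CPM in A549, most of it CD68, with CD3E at 0 in all.

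Sequence shared with other genes leaves the counts of some keratins open to doubt. KRT81, a type II keratin best known from hair, has a relative, KRT86, whose coding sequence was identical at 1324 of 1393 aligned bases. Of the 75-base windows of the KRT81 transcript, the length of 1 read, 36.6% occurred unchanged in another gene's transcript, mostly in KRT86. KRT18 is a case of another kind, since many processed pseudogenes (reinserted copies of the mRNA without introns) carry its sequence. Windows shared with other genes made up 19.2% of the KRT8 transcript and 6.46% of the KRT18 transcript. KRT4, KRT7, KRT80, KRT19, VIM, NES and LMNA had no such window. The transcripts come from GENCODE 29, on a later build than that of the files (GRCh37), and were matched by gene.

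Of the 10 genes, 7 fell in TD, 1 rose (VIM) and 2 (KRT7 and NES) were not called, at an adjusted p below 0.05 by edgeR's quasi-likelihood test. KRT4 and KRT19 passed the filter on low counts through the A549 libraries alone, so they could not have risen. Among all 17785 tested genes, 43.0% were called, with 21.4% that fell and 21.6% that rose. The median change of the 10 was -1.40 on the log2 scale, against -0.04 over all tested genes. The 10 genes were chosen with earlier results of these data known. These counts and medians are thus a description and do not test the list against the rest. In none of the 10 did the TD and A549 libraries overlap, but the same held for 74.0% of all tested genes, so with 2 libraries a group this separation says little. In RNA from whole cultures, fewer cells that express a gene and less RNA in each cell cannot be told apart.

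**Figure D1:**
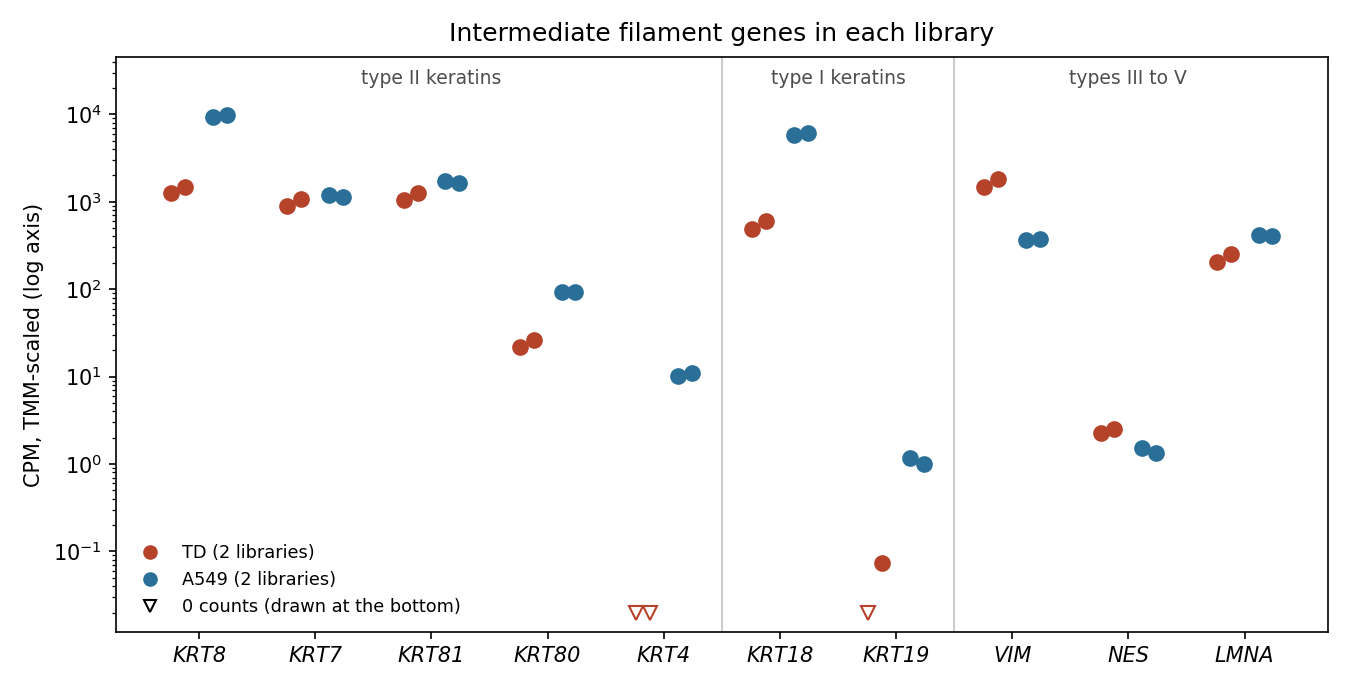
Level of each of the 10 genes in each library, in CPM on a log axis, with TD libraries (red) left of A549 libraries (blue). Open triangles mark libraries with 0 counts. KRT8 and KRT18 lie highest in A549 and lower in TD, VIM lies higher in TD, and KRT7 lies close in both groups.

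The simple-epithelial pair KRT8 and KRT18 lost the most CPM of the 10 genes. KRT8, the type II partner, had 1241 and 1471 CPM in the TD libraries, against 9214 and 9709 CPM in the A549 libraries. Its fitted change was -2.80 on the log2 scale (SE 0.14, edgeR adjusted p = 0.000204), a 6.98-fold lower level in TD. KRT18, the type I partner, had 484 and 596 CPM in TD, against 5766 and 6063 CPM in A549. It fell by 3.45 on the log2 scale (SE 0.15, edgeR adjusted p = 0.000134), a 10.95-fold lower level. The loss left both genes well expressed by length-scaled level (TPM, counts scaled to gene length and then to library size). With each gene's shortest principal transcript, KRT8 ranked 119 and 115 among all genes in TD, against 11 in both A549 libraries. KRT18 ranked 212 and 193 in TD, against 13 in both A549 libraries. The ranks depended on the length. With the joined length of all annotated exons, KRT8 ranked 188 and 173 in TD, against 24 in both A549 libraries. KRT18 then ranked 224 and 192 in TD, against 21 and 22 in A549.

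The 2 partners did not stay in the same proportion. The KRT8 to KRT18 ratio of TPM was 1.20 and 1.16 in TD and 0.747 and 0.749 in A549 with the joined length of all annotated exons. With the shortest principal transcript it was 2.07 and 2.00 in TD and 1.29 and 1.30 in A549. The ratio was thus higher in TD with either length, while its own value depended on the length used. Such ratios are given as values with no test.

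KRT8 and KRT18 have 50 and 67 pseudogenes that are named after them in the files' gene list. Of these, 37 and 44 passed the filter on low counts. In TD, 35 and 44 fell and 0 rose, while 21.4% of all tested genes fell and 21.6% rose. Because the pseudogenes share sequence with KRT8 and KRT18, their calls cannot be told apart from the fall of those genes. Counts given to KRT8 pseudogenes came to 4.39% and 1.12% of the counts of KRT8 itself in TD 1 and 2, and to 3.48% and 3.29% in A549 1 and 2. Counts given to KRT18 pseudogenes came to 3.02% and 0.429% of those of KRT18 in TD, and to 2.94% and 3.07% in A549. The low library in both cases was TD 2, the one with the most counts, while TD 1 was near the A549 libraries. Adding the pseudogene counts to KRT8 and KRT18 did not change either call.

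**Figure D2:**
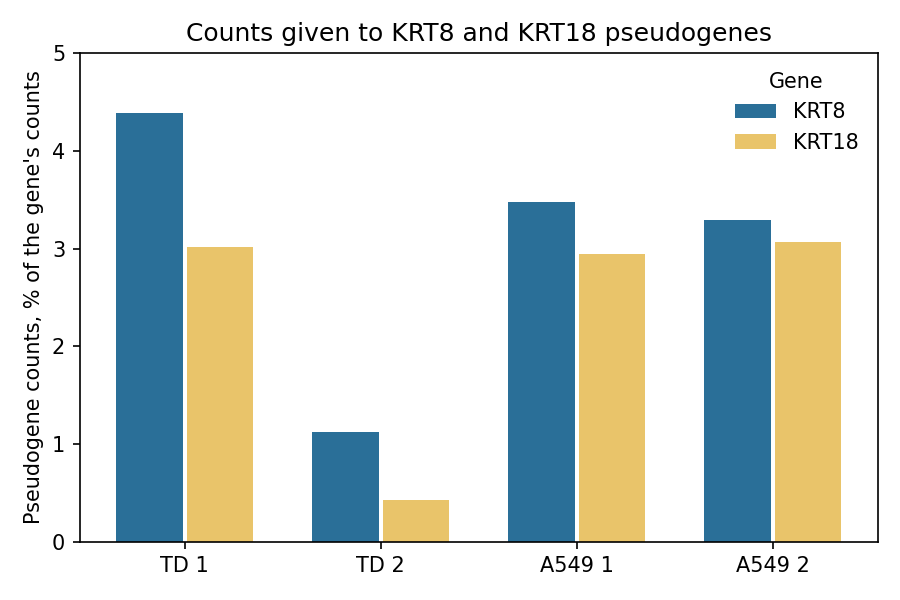
Counts assigned to pseudogenes of KRT8 (blue) and KRT18 (yellow), as a percentage of the counts of the gene itself, in each library. TD 2 stands lowest, at 1.12% and 0.429%, and the other 3 libraries lie between 2.94% and 4.39%.

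KRT7 and KRT19 are the other keratins of simple and glandular epithelia, and they parted. KRT7, a type II keratin of lung and ductal epithelium, had 892 and 1069 CPM in TD and 1195 and 1125 CPM in A549. Its log2 change was -0.24 (95% interval -0.56 to 0.08, edgeR adjusted p = 0.18), so a fall of about the size seen for KRT8 lies outside the interval, while a small fall does not. KRT7 was called lower with scaling by library totals (adjusted p = 0.0267), with the stricter filter of 5 CPM (0.0449) and without TD replicate 2 (0.000540). Leaving out a library, here and in every such fit, leaves 1 library in its group, so the spread comes from the other group alone and the single library is assumed to vary like it.

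KRT19, the type I keratin often measured as an epithelial tumour marker, was rare in the parental A549 group too. It had 0 and 3 counts in TD and 33 and 30 counts in A549. The ratio of A549 to TD counts, scaled to library size, was 25.4 (95% exact counting interval 8.32 to 127), and edgeR called the fall (adjusted p = 0.0114). The call was lost without A549 replicate 1 (adjusted p = 0.117) or A549 replicate 2 (0.102), where the spread came from the TD pair alone. Per length, KRT19 was far below its type I relative KRT18 in both groups, at 0 and 0.0830 TPM in TD and 1.46 and 1.19 TPM in A549 with the principal transcript.

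The remaining type II keratins are more typical of stratified epithelium or hair. KRT80, an epithelial keratin associated with desmosomes, had 21.8 and 26.2 CPM in TD, against 93.3 and 92.8 CPM in A549. It fell by 1.95 on the log2 scale (SE 0.11, edgeR adjusted p = 0.000287). KRT4, a keratin of the layers of internal stratified epithelia such as the oesophagus, had 0 counts in both TD libraries, against 284 and 330 counts (10.2 and 11.1 CPM) in A549. With 3 counts over the TD group in place of 0, it was at least 248-fold lower (edgeR adjusted p = 0.000219).

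KRT81 kept most of its RNA. It had 1044 and 1259 CPM in TD, against 1709 and 1616 CPM in A549, with a log2 change of -0.53 (SE 0.13, edgeR adjusted p = 0.0255). This call was lost without A549 replicate 1 (adjusted p = 0.0942) or 2 (0.0764), where the spread came from the TD pair alone and the log2 change was -0.53 or -0.60. KRT86, the gene that shares sequence with it, had 37.2 and 33.0 CPM in TD and 59.1 and 55.3 CPM in A549 and fell by 0.71 on the log2 scale (SE 0.09, edgeR adjusted p = 0.00414), a call lost without A549 replicate 1 (0.0538). How the authors' counting split reads between this pair is not given in the sources used here, so the values of both are uncertain.

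**Figure D3:**
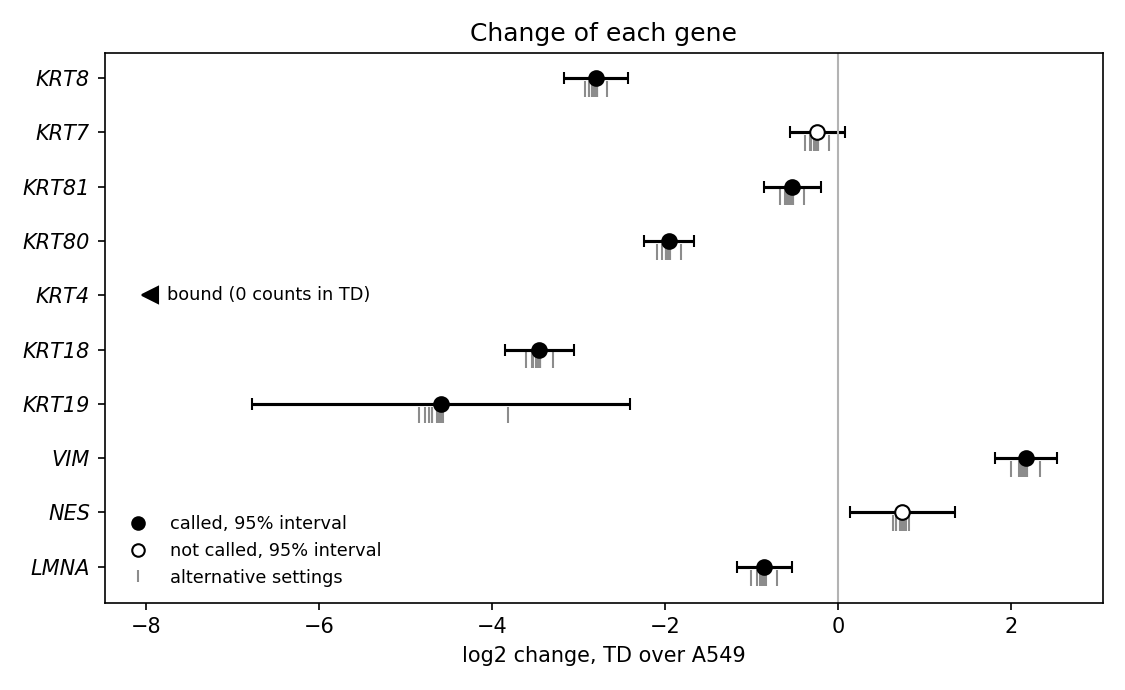
Fitted log2 change of each gene (TD over A549; points, with 95% intervals as bars) and its value under the alternative settings (grey ticks). KRT4 is drawn at its bound, since it had 0 counts in TD, and 1 setting of KRT19 that leaves TD at 0 is not drawn. VIM lies at 2.17 and KRT18 at -3.45. The interval of KRT7 includes 0, and that of NES lies above 0.

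VIM was the gene that rose. It had 1473 and 1841 CPM in TD, against 366 and 371 CPM in A549, a log2 change of 2.17 (SE 0.14, edgeR adjusted p = 0.000419) and a 4.50-fold higher level. VIM RNA was therefore not absent from the parental line. By TPM with the principal transcript it ranked 369 and 371 among all genes in A549, and 103 and 97 in TD. With joined exons it ranked 513 and 521 in A549, and 105 and 91 in TD. The antisense genes VIM-AS1 and AL133415.1 overlap 12.4% and 12% of the annotated exon bases of VIM in GENCODE 29. The counts of AL133415.1 are not given here. VIM-AS1 had 1.21 and 1.01 CPM in TD and 0.970 and 1.18 CPM in A549, with no call (log2 change 0.04, edgeR adjusted p = 0.929), far below VIM itself.

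NES, a type IV filament best known from neural progenitors and also seen in proliferating and mesenchymal cells, was a minor transcript in this line. It had 66 and 102 counts in TD and 42 and 40 counts in A549, or 2.27 and 2.51 CPM in TD and 1.51 and 1.35 CPM in A549. Its log2 change was 0.74 (95% interval 0.14 to 1.35, edgeR adjusted p = 0.0566), short of the threshold. It was called higher by limma-voom (adjusted p = 0.0354) and without TD replicate 1 (0.00345) or 2 (0.0381), where the spread came from the A549 pair alone. Among the 4 neural progenitor markers, PAX6 had 2.14 and 2.11 CPM in TD and 0.647 and 1.21 CPM in A549 and was not called (edgeR adjusted p = 0.0559). SOX2 had 0.586 and 0.541 CPM in TD and 0.467 and 0.303 CPM in A549 and was not called (edgeR adjusted p = 0.376). NEUROD1 had at most 1 count in any library, and SOX1 was at 0 in all libraries. What part these markers have in the NES value was not tested.

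LMNA, which encodes lamins A and C, had 203 and 249 CPM in TD, against 417 and 401 CPM in A549. It fell by 0.85 on the log2 scale (SE 0.12, edgeR adjusted p = 0.00525), a 1.81-fold lower level. LMNB1 and LMNB2, which encode the B-type lamins and were singled out after their values were seen, went the other way. LMNB1 had 97.0 and 97.9 CPM in TD, against 58.4 and 56.4 CPM in A549 (log2 change 0.76, SE 0.07, edgeR adjusted p = 0.00127). LMNB2 had 281 and 310 CPM in TD, against 215 and 180 CPM in A549 (log2 change 0.59, SE 0.12, edgeR adjusted p = 0.0156), a call lost without A549 replicate 2 (0.0547). The TPM ratio of LMNA to the sum of both B-type genes was 0.371 and 0.425 in TD, against 1.07 and 1.18 in A549, with the joined exon length. With the principal transcript it was 0.678 and 0.778 in TD, against 1.97 and 2.17 in A549.

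Set on a common scale per length, the filament RNA changed both in amount and in makeup. The TPM of all keratin and other intermediate filament genes together came to 4529 and 4803 in TD, against 13257 and 12668 in A549. Keratins made up 73.2% and 73.1% of this sum in TD, against 95.6% and 95.8% in A549. VIM made up 18.7% and 19.4% in TD, against 1.55% and 1.54% in A549. The ratio of VIM to KRT8 plus KRT18 was 0.863 and 0.895 in TD, against 0.0227 and 0.0218 in A549. Keratins thus still outweighed vimentin in TD at the RNA level, by every length tried.

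Within the keratins, the balance of the types differed. The TPM ratio of type II to type I keratins was 6.06 and 5.88 in TD, against 1.43 and 1.36 in A549. Type I keratins made up 10.4% and 10.6% of the filament TPM in TD, against 39.4% and 40.6% in A549, and most of that was KRT18 in both groups. The type II share depended on the length: it was 62.8% and 62.5% in TD, against 56.2% and 55.2% in A549, with joined exons, and 57.6% and 56.8% in TD, against 60.5% and 60.2% in A549, with the principal transcript. With joined exons, KRT8 made up 11.8% and 11.6% in TD, against 29.3% and 30.3% in A549. KRT81 made up 35.4% and 35.5% in TD, against 19.4% and 18.0% in A549, and KRT7 made up 14.2% in both TD libraries, against 6.39% and 5.89% in A549.

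**Figure D4:**
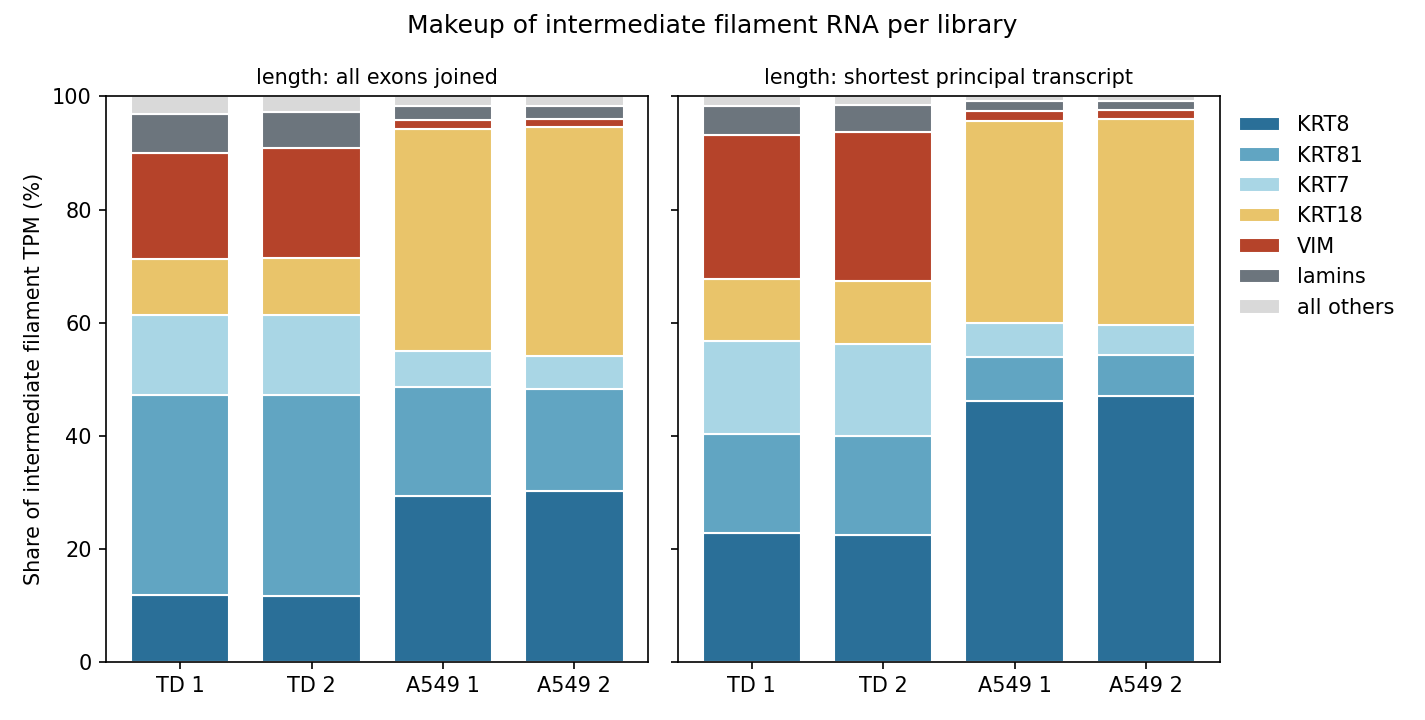
Share of the summed TPM of all intermediate filament genes taken by the main genes (stacked, percent) in each library, with 2 definitions of gene length. In both panels KRT8 and KRT18 take less and VIM more in the TD libraries, while the sizes of the KRT8 and KRT81 blocks depend on the length used.

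The order of the genes depended on that length. With joined exons, the order of mean TPM in TD was KRT81 (1654 ± 72.8, SD, n = 2), VIM (889 ± 61.4), KRT7 (664 ± 26.5), KRT8 (546 ± 17.1) and KRT18 (465 ± 26.7). With the principal transcript it was VIM (1471 ± 98.9), KRT8 (1283 ± 38.0), KRT81 (991 ± 41.8), KRT7 (928 ± 35.3) and KRT18 (631 ± 35.2), where KRT81 and KRT7 differed by less than the sum of their SDs. In A549, KRT18 (5157 ± 52.0) led KRT8 (3858 ± 33.4) with joined exons, and KRT8 (9008 ± 8.51) led KRT18 (6960 ± 3.41) with the principal transcript, followed by KRT81, KRT7, VIM and LMNA with either. LMNA, KRT80, NES, KRT19 and KRT4 came last in TD in that order with either length, and KRT80, KRT4, KRT19 and NES in A549.

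Of 26 other type I keratins, 4 passed the filter. Of these, 1 rose and 1 fell, against 21.6% and 21.4% of all tested genes. The riser, KRT14, passed the filter through the TD libraries alone, so it could not have fallen. KRT17, a keratin of basal and stressed epithelium, had 18 and 29 counts in TD and 88 and 53 in A549 and fell by 1.88 on the log2 scale (SE 0.38, edgeR adjusted p = 0.015), a call lost without A549 replicate 1 (0.0894). KRT14, the basal-cell type I keratin, had 16 and 19 counts in TD, against 2 and 3 in A549 (edgeR adjusted p = 0.0208), a call lost by DESeq2 (0.0657) and without A549 replicate 1 (0.164) or 2 (0.129). KRT10, at 15.0 and 19.4 CPM in TD and 15.6 and 14.0 CPM in A549, and KRT15 were not called. The 22 that could not be tested had at most 11 counts in any library.

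Of 21 other type II keratins, 5 passed the filter. Of these, 3 fell and 1 rose, against 21.4% and 21.6% of all tested genes. KRT5, which fell, passed the filter through the A549 libraries alone, and KRT79, which rose, through the TD libraries alone. The direction of these calls was thus set by the filter. KRT6A, a keratin of wound and hyperproliferative epithelium, had 28 and 52 counts in TD, against 76 and 100 in A549 (log2 change -1.44, SE 0.27, edgeR adjusted p = 0.013). KRT5, the basal-cell partner of KRT14, had 2 and 2 counts in TD, against 10 and 12 in A549 (edgeR adjusted p = 0.0278), a call lost by DESeq2 (0.0917). Without A549 replicate 1, KRT6A (adjusted p = 0.0565), KRT5 (0.184) and KRT86 were all lost, which left 0 that fell, and KRT6A was also lost without A549 replicate 2 (0.0867). KRT79 had 15 and 16 counts in TD and 0 in A549, at least 8.53-fold higher with 3 counts over the A549 group in place of 0 (edgeR adjusted p = 0.0146), a call lost without A549 replicate 1 (0.0702) or 2 (0.0696). KRT83, a hair keratin related to KRT81, had 1.10 and 0.467 CPM in TD and 2.80 and 1.79 CPM in A549 and was not called (edgeR adjusted p = 0.0624). It was called lower by DESeq2 (adjusted p = 0.0306), by limma-voom (0.0350), with no filter (0.00916) and without TD replicate 1 (2.1e-10) or 2 (0.00195).

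Among 14 other intermediate filament genes in the files, 10 passed the filter. Of these, 4 rose and 1 fell, against 21.6% and 21.4% of all tested genes. Among the risers, IFFO1 passed the filter through the TD libraries alone, so it could not have fallen. The count that fell was less firm: it was 3 by limma-voom and with no filter, and 5 without TD replicate 2, while 2 rose without A549 replicate 2. The member that fell was INA, which encodes the neuronal filament alpha-internexin, with 4.17 and 5.02 CPM in TD, against 23.2 and 24.8 CPM in A549 (log2 change -2.38, SE 0.13, edgeR adjusted p = 0.000256). Besides the B-type lamins, IFFO1 had 1.24 and 1.38 CPM in TD, against 0.251 and 0.202 CPM in A549 (log2 change 2.51, SE 0.35, edgeR adjusted p = 0.00503), a call lost without A549 replicate 2 (0.0562). IFFO2 had 74.6 and 81.7 CPM in TD, against 36.5 and 37.6 CPM in A549 (log2 change 1.08, SE 0.08, edgeR adjusted p = 0.000722).

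The proteins that tie filaments to junctions and to other parts of the skeleton moved in both directions. Of 10 tested cytolinkers, 6 fell and 3 rose, against 21.4% and 21.6% of all tested genes. Their median log2 change was -1.54. Among those that fell, PPL passed the filter through the A549 libraries alone, so it could not have risen. PPL, the cornified-envelope linker periplakin, had 0.276 and 0.320 CPM in TD, against 18.0 and 19.4 CPM in A549 (log2 change -5.94, SE 0.16, edgeR adjusted p = 4.44e-05). JUP, the desmosomal and adherens-junction protein plakoglobin, had 11.1 and 17.2 CPM in TD, against 94.8 and 88.9 CPM in A549 (log2 change -2.69, SE 0.22, edgeR adjusted p = 0.000893). DST, a large plakin, had 191 and 187 CPM in TD, against 117 and 123 CPM in A549 (log2 change 0.65, SE 0.07, edgeR adjusted p = 0.00247). PLEC, which encodes plectin and links vimentin and keratin filaments to other structures, had 270 and 369 CPM in TD, against 222 and 185 CPM in A549 (edgeR adjusted p = 0.0413), a call lost without A549 replicate 1 (0.104) or 2 (0.195). Either omission left 1 riser.

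Of 23 genes of the nuclear lamina and its membrane partners, all tested, 6 rose, 2 fell and 15 were not called. Their median log2 change was 0.04. Over all tested genes, 21.6% rose and 21.4% fell. SYNE1, a nesprin that spans the outer nuclear membrane, had 40.3 and 41.5 CPM in TD, against 12.9 and 14.6 CPM in A549 (log2 change 1.57, SE 0.10, edgeR adjusted p = 0.000361). Its relative SYNE2 had 22.3 and 22.9 CPM in TD, against 56.4 and 57.7 CPM in A549 (log2 change -1.34, SE 0.07, edgeR adjusted p = 0.000251). FNTB, a subunit of the enzyme that farnesylates lamins, fell by 0.82 on the log2 scale (SE 0.10, edgeR adjusted p = 0.00289), and NRM, the inner membrane protein nurim, had 2.48 and 3.32 CPM in TD, against 1.29 and 1.31 CPM in A549. The NRM call (edgeR adjusted p = 0.021) was lost without A549 replicate 1 (0.117) or 2 (0.107), and 3 members of the list rose without A549 replicate 1, and likewise without A549 replicate 2, against 10 without TD replicate 1 and 10 by DESeq2. The number that fell was 6 without TD replicate 1, 5 with scaling by library totals or the filter of 5 CPM, and 4 by DESeq2, without TD replicate 2, with no filter and with scaling by upper quartiles.

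Of 15 tested regulators of keratin and vimentin filaments, 5 rose and 3 fell, against 21.6% and 21.4% of all tested genes. Their median log2 change was 0.13. HSPB1, a small heat-shock protein that binds filaments, had 174 and 266 CPM in TD, against 102 and 89.6 CPM in A549 (edgeR adjusted p = 0.0115), a call lost without A549 replicate 1 (0.0761) or 2 (0.0944). FAM83H, which recruits casein kinase 1 to keratin filaments, had 3.17 and 5.73 CPM in TD, against 13.7 and 12.4 CPM in A549 (edgeR adjusted p = 0.0133), a call lost without A549 replicate 1 (0.0895) or 2 (0.0750). TRIM21, an interferon-inducible ubiquitin ligase, had 13.9 and 12.7 CPM in TD, against 59.9 and 63.6 CPM in A549 (log2 change -2.22, SE 0.09, edgeR adjusted p = 0.000105).

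Genes of the cornified envelope, the protein shell of stratified epithelium that keratins attach to, were mostly filtered out. Of 20 listed, 8 passed the filter, of which 4 fell and 0 rose, against 21.4% and 21.6% of all tested genes. Their median log2 change was -2.07, or -1.85 with the genes at 0 counts in TD set to their bounds. The 4 that fell passed the filter through the A549 libraries alone, so they could not have risen. The count and the median are thus partly set by the filter. SCEL, which encodes sciellin, had 0 counts in TD and 44.2 and 52.3 CPM in A549. PI3, which encodes the protease inhibitor elafin, had 0.0689 and 0.246 CPM in TD, against 5.50 and 5.93 CPM in A549 (log2 change -5.07, SE 0.51, edgeR adjusted p = 0.00171).

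**Figure D5:**
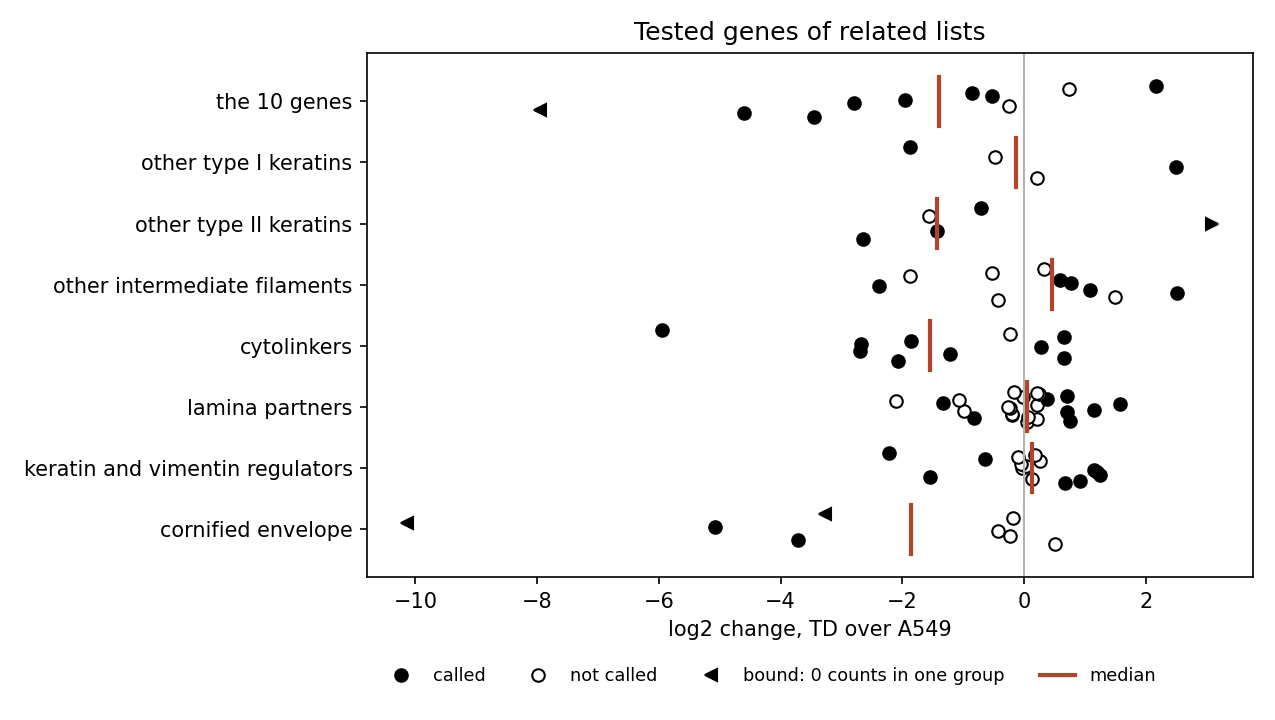
Log2 change (TD over A549) of each tested gene of the 10 genes and of 7 related lists, filled where called at an adjusted p below 0.05, with the median of each list as a red line. Triangles are bounds for genes with 0 counts in 1 group. Medians lie below 0 for the 10 genes, the other type I (-0.13) and type II (-1.44) keratins, the cytolinkers and the cornified envelope. They lie above 0 for the other intermediate filaments (0.45), the lamina partners (0.04) and the regulators (0.13).

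As a description, the genes whose levels over the 4 libraries lay nearest to those of VIM, by Euclidean distance of log2 CPM centred on each gene's mean and among 9166 genes of at least 10 CPM, were PACS1 (distance 0.0769), TGM2 (0.0835) and EEF1A2 (0.0981). TGM2, which encodes a transglutaminase that crosslinks proteins, had 3301 and 3884 CPM in TD, against 766 and 775 CPM in A549. For KRT8 they were CAMK2D (0.0322), AHR (0.0356) and SCARA3 (0.0942). AHR, the aryl hydrocarbon receptor, had 5.45 and 6.54 CPM in TD, against 39.7 and 42.5 CPM in A549. All of these distances rest on 4 libraries.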

How the data were processed

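RNA was measured in 2 TD and 2 A549 libraries, from polyadenylated RNA with a strand-specific kit and paired reads of 75 bases, as the labels' protocols state. Per the labels and the files, each deposited file lists raw counts for every gene of 1 library, which the authors did not normalize. FastQC 0.11.8, STAR 2.7.1a and HTSeq 0.11.2 and the build GRCh37 (hg19) are named, per the submitters' processing notes. For the annotation and the strand setting, the entry is not given in the sources used here, so overlapping and antisense genes are uncertain. Closing rows of reads given to no gene (6.12% to 7.79% outside genes, 8.08% to 9.22% with several alignments) were left out, so reads that fit several keratin copies may be missing.

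Genes were named from GENCODE 29 (52338 of 57820 matched). TD was compared with A549 by the quasi-likelihood test of edgeR 4.0.16 (R 4.3.3) with TMM scaling, filterByExpr at 10 counts and Benjamini-Hochberg adjustment over all tested genes. The steps were tried on simulated data with the same spread setting for every gene and few changed genes. That simulation does not measure error rates in these libraries. SE comes from the change and its F statistic. CPM are TMM-scaled, and TPM divide counts by gene length from GENCODE 29 (joined exons, longest transcript or the shortest APPRIS principal transcript). Unless stated, TPM use joined exons. Bounds set 3 counts over a group in place of 0, and with 1 to 3 counts a 95% exact counting interval is given. Bounds and intervals cover counting error only.

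No source says that the libraries of a group are separate cultures, so p-values cover just the variation of these libraries, possibly technical. No 2 libraries were identical. Same-numbered deviations from the group means had a correlation of -0.0908 over 9232 genes. With 2 libraries a group, this cannot show whether same-numbered libraries belong together. The 10 genes and the lists were chosen with earlier results of these data known. Named genes were the 10, those that could share reads with them, the 2 called members of each list with the largest change in each direction at a mean of 1 CPM or more in the higher group, any tested member of lists with fewer than 8, the 3 genes nearest to VIM and to KRT8, and any of the cell type markers. Others are marked as chosen after their values were seen. A few items that fall under this rule are not reported here. Alternatives were other scalings and filters, DESeq2 1.42.0, limma-voom (limma 3.58.1), the replicate block, each library left out, pseudogene counts added to the parent, a test against a 1.5-fold change, and other gene lengths.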

Additional observations from a re-analysis of the deposited data

How the results depend on the processing

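Over 15 alternative settings, the 10 genes gave 148 values, of which 134 kept the call and the direction, 8 lost the call, 6 gained one and 0 reversed. KRT4, KRT8, KRT18, KRT80 and VIM kept theirs under every setting run, with log2 changes of -2.93 to -2.67 for KRT8, -3.61 to -3.30 for KRT18 and 2.00 to 2.33 for VIM. Tested against a 1.5-fold change, LMNA had an adjusted p of 0.0565 and KRT81 of 0.885, and 1741 of all tested genes rose and 2109 fell. With 1 library left out, where the spread comes from the complete group alone, 2114 to 5329 genes rose and 2236 to 6140 fell, with 2114 and 2236 without A549 replicate 1, 2241 and 2251 without A549 replicate 2, and 6140 that fell without TD replicate 1. Of the 10, 1 to 2 rose and 5 to 8 fell in these fits, and 2 rose by limma-voom. With the replicate number as a block, 2964 genes rose and 2847 fell, and of the 10, 1 rose and 5 fell, with KRT81 (adjusted p = 0.0540) and KRT19 (0.0573) not called. What the replicate numbers stand for is not given in the sources used here. The mean TPM ratio of VIM to KRT8 plus KRT18 in TD was 0.847 with the longest transcript and 0.768 with the principal transcript, and in A549 0.0206 with the principal transcript. The type II to type I ratio was 6.17 in TD and 1.72 in A549 with the longest transcript, and 5.01 in TD and 1.67 in A549 with the principal transcript. The principal transcript was added after seeing the data. The median change of all genes was -0.12 with scaling by library totals and -0.19 without a filter, against -0.04, and no direction of the 10 turned. Depth limits KRT4, KRT19 and NES, whose counts were at most 330, 33 and 102 in any library.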

Other observations

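KRT7-AS, the antisense gene that overlaps 6.89% of the annotated exon bases of KRT7, had 18.7 and 15.1 CPM in TD and 23.7 and 17.9 CPM in A549 and was not called (edgeR adjusted p = 0.25). KRT8 and KRT18 lie on opposite strands and share 525 exon bases in the annotation, 16.3% of those of KRT18, so part of their counts could be assigned to neither. GFAP, the filament of astrocytes, had 15 and 16 counts in TD and 7 and 2 in A549, and PRPH, a filament of peripheral neurons, had 2 and 7 counts in TD and 14 and 13 in A549, and neither was called (edgeR adjusted p = 0.161 and 0.066). PRPH was called lower by limma-voom (adjusted p = 0.0432), with no filter (0.0403) and without TD replicate 2 (0.00909). KRT34 and KRT71, keratins of hair, had 6 and 7 and 3 and 6 counts in TD and 0 counts in both A549 libraries, too few to be tested. These 4 genes were picked after their values were seen.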
